A study of Canis lupus familiaris with 10 samples.

Results

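Müller cells are the main glia of the retina and span its whole thickness. They take up potassium and glutamate that neurons release, convert glutamate to glutamine, move water along with these ions, and buffer carbon dioxide and acid. A set of 9 genes for these tasks was followed in the canine retina. It comprised the water channels AQP1 and AQP4, the inward rectifier potassium channel gene KCNJ10, the glutamate transporters SLC1A2 and SLC1A3, glutamine synthetase (GLUL), carbonic anhydrase 2 (CA2), the sodium bicarbonate cotransporter SLC4A4, and DKK3, a secreted Dickkopf protein made by Müller cells. Every probe set annotated with exactly 1 of these gene symbols was taken, which gave 15 of the 42924 probe sets of the array. Of these, 11 exceeded a log2 level of 7 in 2 or more retinas, as did 18416 probe sets of the whole array, and were tested. The other 4 stayed below that minimum. They were the only KCNJ10 probe set and the dimmer probe set each of AQP1, SLC1A2 and SLC4A4.

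Neural retina of 5 dogs with advanced primary glaucoma was compared to that of 5 healthy Beagles aged 4 years, with 1 Affymetrix array per dog. By the sample labels the glaucoma group held Shiba Inus of 5 and 14 years, Basset Hounds of 5 and 7 years, and a Dalmatian of 9 years. The study's own list of animals gives other ages for the older Shiba Inu and the Dalmatian. Glaucomatous eyes had closed iridocorneal angles and raised pressure, and all glaucoma dogs received latanoprost, a prostaglandin analog, and brinzolamide, a carbonic anhydrase inhibitor. Healthy dogs had open angles and received neither drug. Glaucomatous eyes were enucleated from clinic patients, while the control dogs had been euthanized for other reasons. Disease, treatment, breed, age and the way eyes were obtained differed between the groups together and cannot be told apart. Values are RMA levels, probe set intensities normalized between arrays, on the log2 scale. A difference is the glaucoma mean minus the healthy mean, so that a log2 difference of 1 is a 2-fold change. A probe set was called higher or lower at an adjusted p under 0.05 from limma. Since each sample was whole retina, fewer cells of a type and less RNA per cell cannot be told apart.

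The arrays were alike in median intensity (77.1 to 80.7) and each exceeded the minimum in 15910 to 16315 probe sets. One glaucomatous retina, from the younger Shiba Inu, stood apart in its cell type markers. The median of the 11 tested rod genes lay 3.38 below the healthy mean there on the log2 scale, compared to -0.60 to 0.08 in the other glaucomatous retinas. Its median for 12 pigment epithelium genes was 2.83 above the healthy mean, while control 4 was the healthy retina with the highest such median (1.81). The differences of the called members are also given without these retinas below. Single related genes and marker lists are given with all retinas only.

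The water channel genes rose in the glaucomatous retina, CA2 fell, and the remaining members did not pass the test. AQP1 was 12.4-fold higher and AQP4 3.51-fold higher. All 3 probe sets of CA2 were lower, by 1.90- to 2.49-fold. Of the 11 tested probe sets, 2 were called higher (18.2%), against a background of 7.58% of all tested probe sets, and 3 were called lower (27.3%), against 9.4%. Of the 2 higher calls, that of AQP4 is of a probe set that entered the test through its glaucoma values alone. The 3 lower calls are of a single gene and are not independent of each other. The median difference over the 11 probe sets was -0.16, compared to -0.02 over all tested probe sets.

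**Figure D1:**
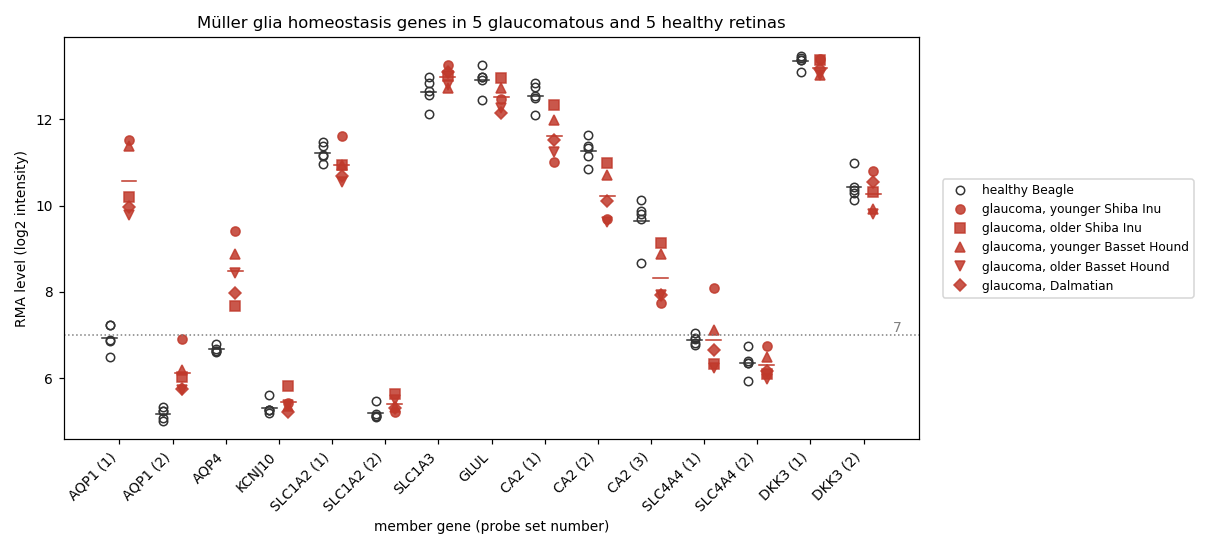
RMA level on the log2 scale (vertical axis) of the 15 member probe sets (horizontal axis) in each retina. Open circles are healthy Beagles, filled symbols are glaucoma dogs, short lines are group means, and the dotted line is the log2 minimum of 7. AQP1 and AQP4 show every glaucomatous retina above every healthy one, and CA2 shows lower glaucomatous retinas with some overlap.

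AQP1 encodes a water channel that lets water cross membranes along an osmotic gradient. It is known from red cells, many endothelia, the ciliary epithelium and the outer retina. The brighter AQP1 probe set had log2 levels of 11.53 in the younger and 10.19 in the older Shiba Inu, 11.39 in the younger and 9.78 in the older Basset Hound, and 9.96 in the Dalmatian. In controls 1 to 5 the levels were 7.22, 6.86, 7.22, 6.88 and 6.48. The groups did not overlap, and a log2 gap of 2.56 separated the lowest glaucomatous retina from the highest healthy one. Across all tested probe sets, 6.82% showed every glaucomatous retina above every healthy one. The means were 10.57 ± 0.83 in glaucoma and 6.93 ± 0.31 in the healthy retinas (SD, n = 5 each). The difference of 3.64 (SE 0.35, 95% interval 2.88 to 4.40, adjusted p = 0.000106 from limma) had rank 18 among the 18416 tested probe sets, counted from the largest increase.

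The second AQP1 probe set moved in the same direction on a much smaller scale. Its log2 levels were 6.90 and 6.03 in the younger and older Shiba Inu, 6.18 and 5.73 in the younger and older Basset Hound and 5.74 in the Dalmatian, and ranged from 5.00 to 5.33 in the healthy retinas. The groups did not overlap here either. The difference was 0.94 and, since no retina reached the minimum, it was tested only when the filter on expression was dropped (adjusted p = 0.0130 from limma).

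AQP4 encodes the water channel of Müller cell and astrocyte endfeet, where it is held by the dystrophin complex. Its single probe set had log2 levels of 9.41 in the younger and 7.68 in the older Shiba Inu, 8.88 in the younger and 8.44 in the older Basset Hound, and 7.97 in the Dalmatian. The healthy retinas gave 6.79, 6.63, 6.62, 6.61 and 6.67 in controls 1 to 5. Every glaucomatous retina lay above the healthy ones, the nearest by 0.89. All healthy levels were under the minimum, so the probe set entered the test through its glaucoma values alone and its fold change may be understated. The difference was 1.81 (SE 0.28, 95% interval 1.20 to 2.42, adjusted p = 0.00149 from limma), with means of 8.48 ± 0.69 and 6.66 ± 0.08 (SD, n = 5 each).

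The youngest dogs of the glaucoma group, the Shiba Inu and the Basset Hound of 5 years, had the highest levels of both water channel genes. Below them the order differed, and the older Shiba Inu followed them for AQP1 but had the lowest AQP4 level. Without the younger Shiba Inu and control 4 the differences were 3.38 for AQP1 (adjusted p = 0.000462) and 1.57 for AQP4 (adjusted p = 0.00243). In 24 of 25 alternatives the adjusted p stayed under 0.05 for both genes, whereas the exact Wilcoxon rank sum test, a test of the study's methods, gave 0.0536 for both. This is the smallest adjusted value it gave for any probe set.

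**Figure D2:**
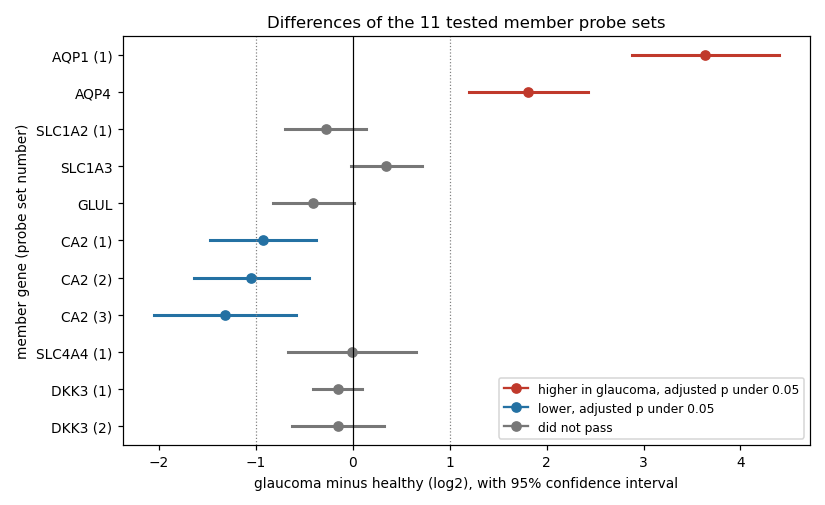
Difference of mean log2 levels, glaucoma minus healthy (horizontal axis), of the 11 tested member probe sets (vertical axis). Points are differences over 5 dogs a group, bars are 95% confidence intervals from limma without adjustment for the number of tests, and dotted lines mark a 2-fold change. The intervals of AQP1 and AQP4 lie above a 2-fold increase, those of the 3 CA2 probe sets lie below 0, and the other 6 include 0.

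Cells besides Müller glia can carry AQP1 RNA, and their markers were read beside it. Of 12 listed endothelial genes 6 were tested, and the sum of their intensities was 3620 to 4964 in glaucoma and 3329 to 5023 in the healthy retinas. In this list 1 gene, the VEGF receptor FLT1, rose by 0.66 (adjusted p = 0.0146 from limma), none fell, and the median difference was -0.01. The endothelial adhesion gene CDH5 stayed below the minimum in every retina, and no PECAM1 probe set exceeded it in 2 retinas (highest log2 level 7.33). None of the 4 erythroid genes with a probe set of their own (ALAS2, SLC4A1, EPB42 and HEMGN) reached it. The summed intensity of 12 of 13 pigment epithelium genes was 9672 to 58664 in glaucoma and 5842 to 38913 in the healthy retinas, with 1 of the 12 higher (SERPINF1, a secreted serpin, by 0.91, adjusted p = 0.00787) and none lower. Control 4, with the highest pigment epithelium signal of its group, had an AQP1 level of 6.88, near the healthy mean of 6.93, and an AQP4 level of 6.61. The summed intensity of 7 of 12 reactive glia genes was 15311 to 27877 in glaucoma and 4998 to 10905 in the healthy retinas, and that of 10 of 12 microglia and macrophage genes 7617 to 17466 and 1856 to 2799. All 7 of the former and 9 of the 10 latter rose, against 8.04% of all tested genes. Of the genes that rose in these 2 lists, GFAP, CSF1R, CD68 and TREM2 had healthy means under the minimum (5.70, 6.38, 6.53 and 6.91). The part of any of these cell types, pigment epithelium and glia included, in the rise of AQP1 and AQP4 was not tested.

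KCNJ10 encodes Kir4.1, the channel through which Müller cells carry potassium away from active synapses. Its probe set read log2 levels of 5.22 to 5.82 in glaucoma and 5.20 to 5.61 in the healthy retinas. No retina came near the minimum and the groups overlapped. The difference was 0.12 (adjusted p = 0.64 from limma without the filter on expression). A change in KCNJ10 was not detectable with this probe set.

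SLC1A3 and SLC1A2 encode the glutamate transporters GLAST and GLT-1. In the mammalian retina GLAST is the main transporter of Müller cells, while GLT-1 is found mainly in bipolar cells and cones. The SLC1A3 probe set had log2 levels of 13.27 and 13.00 in the younger and older Shiba Inu, 12.72 and 12.80 in the younger and older Basset Hound and 13.09 in the Dalmatian, against 12.98, 12.13, 12.84, 12.56 and 12.65 in controls 1 to 5. Of the glaucomatous retinas 3 lay above every healthy one, and the rest were within the healthy range. The difference of 0.35 did not pass the test (95% interval -0.02 to 0.71, adjusted p = 0.179 from limma).

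For SLC1A2 the brighter probe set gave log2 levels of 11.62 in the younger and 10.94 in the older Shiba Inu, 10.94 in the younger and 10.55 in the older Basset Hound, and 10.68 in the Dalmatian. Controls 1 to 5 had 11.48, 11.15, 11.17, 10.97 and 11.37. The younger Shiba Inu lay above every healthy retina and the other 4 glaucomatous retinas lay below every healthy one. With all dogs the difference was -0.28 and did not pass (95% interval -0.70 to 0.14, adjusted p = 0.336 from limma). Without the younger Shiba Inu it was -0.45 and passed (adjusted p = 0.0432), as it did without both Shiba Inus (-0.50, adjusted p = 0.0447) and with array weights (-0.43, adjusted p = 0.0412). Over all settings the adjusted p ranged from 0.0325 to 0.739. The dim second probe set differed by 0.20, with no retina above the minimum.

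GLUL encodes glutamine synthetase, which turns the glutamate taken up by Müller cells into glutamine. Its probe set had log2 levels of 12.47 and 12.96 in the younger and older Shiba Inu, 12.73 and 12.26 in the younger and older Basset Hound and 12.14 in the Dalmatian. The levels in controls 1 to 5 were 12.44, 12.99, 12.99, 12.91 and 13.27. The older Basset Hound and the Dalmatian lay below every healthy retina. The difference of -0.41 did not pass the test (95% interval -0.82 to 0.01, adjusted p = 0.160 from limma), and over the settings tried the adjusted p was 0.0446 to 0.326, with array weights giving the lowest. A further probe set that the annotation gives to GLUL and a pair of unnamed loci together, and that was therefore no member, differed by -0.31 (adjusted p = 0.122).

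CA2 encodes the cytosolic carbonic anhydrase of Müller cells, which interconverts carbon dioxide and bicarbonate. It is also known from cones and some amacrine cells of several species, oligodendrocytes and red cells. The probe set with the highest mean had log2 levels of 11.01 in the younger and 12.34 in the older Shiba Inu, 11.99 in the younger and 11.24 in the older Basset Hound, and 11.51 in the Dalmatian. In controls 1 to 5 the levels were 12.74, 12.85, 12.09, 12.54 and 12.50. Only the older Shiba Inu reached into the healthy range, of which control 3 formed the lower end. The means were 11.62 ± 0.54 and 12.54 ± 0.29 (SD, n = 5 each), and differed by -0.92 (SE 0.25, 95% interval -1.47 to -0.38, adjusted p = 0.0266 from limma).

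The other CA2 probe sets showed the same picture. The second had a mean of 10.22 ± 0.61 in glaucoma and 11.27 ± 0.29 in the healthy retinas (SD, n = 5 each), which is -1.05 in difference (SE 0.27, adjusted p = 0.0224 from limma). The third had 8.32 ± 0.64 and 9.64 ± 0.56 (SD, n = 5 each), which is -1.32 in difference (SE 0.33, adjusted p = 0.0208). The last 2 were called and at least 2-fold lower, as were 3.12% of all tested probe sets, and the 2 water channel probe sets were called and at least 2-fold higher, as were 2.95%. No member had every glaucomatous retina below every healthy one, as 8.03% of all tested probe sets did. In 5 of 5 glaucomatous retinas all 3 probe sets lay below the healthy mean, and in 3 of them, the younger Shiba Inu, the older Basset Hound and the Dalmatian, all 3 lay below every healthy retina. The older Shiba Inu was the highest glaucomatous retina and control 3 the lowest healthy retina in each of the 3 probe sets.

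The size of the CA2 difference held up better than its call. Leaving out 1 retina at a time gave differences of -1.10 to -0.77, -1.24 to -0.90 and -1.56 to -1.17 for the 3 probe sets, with adjusted p up to 0.0733, 0.0623 and 0.0582. No CA2 probe set passed without the Dalmatian or without control 2, and only the third passed without control 4 or without control 5. The first also failed without the older Basset Hound (adjusted p = 0.0583), control 1 (adjusted p = 0.0588) or both Basset Hounds (adjusted p = 0.0513). Without the younger Shiba Inu and control 4 together the differences were -0.77, -0.89 and -1.13, and none of them passed (adjusted p = 0.0716, 0.0724 and 0.0716). The single member called lower in that setting was SLC1A2.

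Markers of neurons and oligodendrocytes were read beside CA2. The median of 6 tested amacrine cell genes minus its healthy mean was -2.67, -2.98 and -3.65 in the younger Shiba Inu, the older Basset Hound and the Dalmatian, the dogs with the lowest CA2, and -1.12 and -1.39 in the older Shiba Inu and the younger Basset Hound. Of these 6 genes (of 10 listed) 5 fell, and their summed intensity was 1173 to 2861 in glaucoma and 4506 to 6238 in the healthy retinas. The amacrine genes GAD2, SLC6A9 and SLC32A1 stayed below the minimum in every retina, and TH exceeded it in only 1 retina. For ganglion cell genes this median was -1.71, -1.73 and -2.49 in the younger Shiba Inu, the older Basset Hound and the Dalmatian. It was -1.61 and -1.17 in the older Shiba Inu and the younger Basset Hound. Of 10 tested ganglion cell genes (of 12 listed) 7 fell, 1 rose and 2 did not pass. The gene that rose was SNCG (2.52, adjusted p = 0.000195 from limma). The paper reports a lower level of SNCG in glaucoma with another probe set, so its direction depends on the probe set. The median of the rod genes minus its healthy mean was -3.38 in the younger Shiba Inu, -0.60 in the Dalmatian and -0.06 to 0.08 in the other 3. No list of cone genes was read, and the paper reports lower levels of the cone genes ARR3, OPN1SW and PDE6C in glaucoma. Of 11 oligodendrocyte genes 3 were tested, with a summed intensity of 497 to 1648 in glaucoma and 229 to 319 in the healthy retinas. Only MAL rose (3.30, adjusted p = 0.000190 from limma). Its healthy mean (5.90) was under the minimum, and its glaucoma mean (9.20) was the highest of the 3 genes. MAG (-0.13, adjusted p = 0.539) and ERMN (0.84, adjusted p = 0.424) did not pass, and MBP and MOG stayed below the minimum. The part of these cells in the CA2 result was not tested. Treatment with a carbonic anhydrase inhibitor coincided with the glaucoma group and cannot be told apart from the disease.

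SLC4A4 encodes NBCe1, which moves bicarbonate together with sodium across the Müller cell membrane and works alongside carbonic anhydrase. Its brighter probe set had log2 levels of 8.08 in the younger and 6.33 in the older Shiba Inu, 7.12 in the younger and 6.23 in the older Basset Hound, and 6.64 in the Dalmatian. The healthy retinas gave 6.91, 6.81, 6.92, 6.76 and 7.04 in controls 1 to 5. The youngest glaucoma dogs lay above the healthy range and the other 3 below it, so that the SD was 0.75 in glaucoma and 0.11 in the healthy retinas while the means were nearly equal. The difference was -0.01 (95% interval -0.67 to 0.65, adjusted p = 0.988 from limma), and its sign depended on the setting. The younger Shiba Inu, with the highest level, was also the retina with the highest pigment epithelium signal. Control 4, with the highest such signal of the healthy group, had the lowest SLC4A4 level of that group. The part of pigment epithelium in the SLC4A4 levels was not tested. The second probe set differed by -0.06 and stayed below the minimum.

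DKK3 belongs to the Dickkopf family of Wnt regulators but does not share the Wnt inhibition typical of the family. The brighter probe set ranged from 13.02 to 13.39 in glaucoma and from 13.10 to 13.48 in the healthy retinas on the log2 scale. The difference was -0.16 (95% interval -0.41 to 0.10, adjusted p = 0.379 from limma), which makes it the member with the narrowest interval. The second probe set differed by -0.15 (95% interval -0.63 to 0.32, adjusted p = 0.661). The groups overlapped in both, and changes of 2-fold lie outside both intervals.

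**Figure D3:**
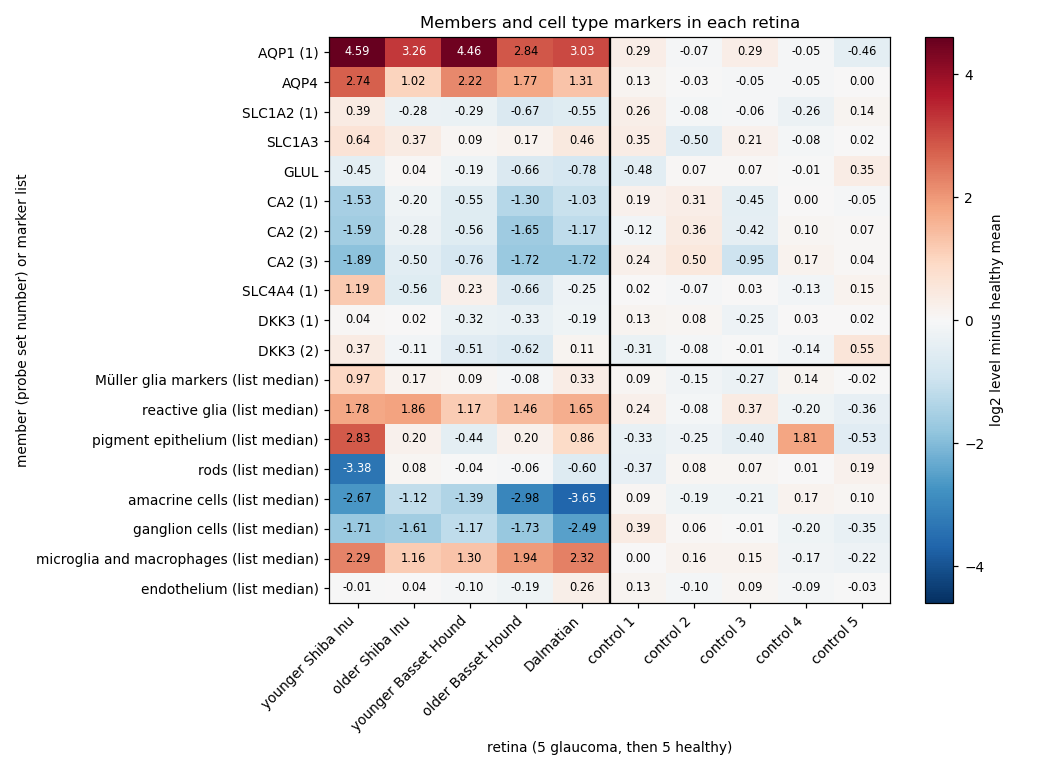
Log2 level minus the healthy mean (color and printed value) in each of the 10 retinas (columns) for the 11 tested member probe sets and, below the line, the median over the tested genes of 8 marker lists (rows). In all 5 glaucomatous retinas AQP1, AQP4 and the reactive glia and microglia lists are positive. CA2 and the amacrine and ganglion cell lists are negative in all 5. The younger Shiba Inu differs from the others in rods and pigment epithelium.

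Markers of Müller cell identity were read to place the members within their cell type. Of 13 listed genes 12 were tested. In glaucoma 4 of them rose, none fell and 8 did not pass, with a median difference of 0.35. Over all tested genes 8.04% rose and 8.65% fell. The lipid transporter ABCA8 rose by 1.67 (adjusted p = 0.000784 from limma) and the matrix protein SPON1 by 1.38 (adjusted p = 0.00112). The healthy mean of ABCA8 (5.54) was under the minimum. SOX9, a transcription factor of Müller cells, had the largest difference that did not pass (0.46, adjusted p = 0.344). The summed intensity of the list was 50276 to 67278 in glaucoma and 41588 to 51543 in the healthy retinas, and the younger Shiba Inu had the highest list median (0.97). One gene of this list, RGR, is also in the pigment epithelium list.

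Genes of reactive glia were elevated, while those of astrocytes were mixed. All 7 tested reactive glia genes rose, with a median difference of 1.88, among them the transcription factor STAT3 (1.27, adjusted p = 0.000202 from limma) and the protease inhibitor SERPINA3 (2.14, adjusted p = 0.000235). Of 6 tested astrocyte genes 3 rose, 1 fell and 2 did not pass, with a median difference of 0.80. Their summed intensity, in which ALDOC was the brightest gene, was 6739 to 11782 in glaucoma and 12171 to 13889 in the healthy retinas. GFAP, the intermediate filament of astrocytes and stressed Müller cells, rose by 2.46 (adjusted p = 0.00228) and ALDH1L1, a folate enzyme of astrocytes, by 0.98 (adjusted p = 0.00873). The healthy mean of GFAP (5.70) was under the minimum. ALDOC, a glycolytic enzyme, fell by 0.78 (adjusted p = 0.0418), and the calcium-binding protein S100B differed by 0.62 (adjusted p = 0.0833). GFAP is in both lists.

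Genes that share a task with the members were followed in 9 further lists. Of 128 listed genes, 108 had a probe set with 1 symbol and 59 had one that was tested. In glaucoma 8 of the 59 rose (13.6%, against 8.04% of all 7900 tested genes) and 7 fell (11.9%, against 8.65%). The median difference was 0.13, compared to -0.01 over all genes. Among the higher genes, DKK1, PC, DTNA and SLC38A5 had healthy means under the minimum (5.13, 6.51, 6.50 and 6.71). They entered the test through their glaucoma levels. With the minimum required in 5 samples, 4 of 43 tested genes were higher. The count of higher genes was 4 without the Dalmatian, 2 without control 2, 5 without control 4 and 2 without control 5, and that of lower genes was 4 without control 2.

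**Figure D4:**
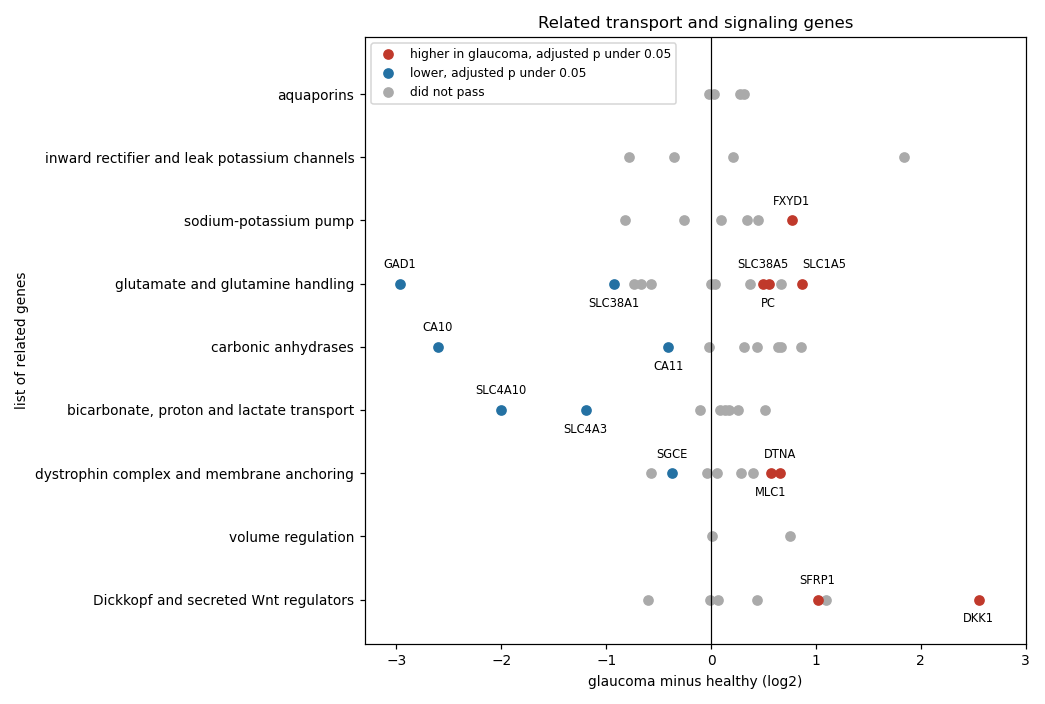
Difference of mean log2 levels, glaucoma minus healthy (horizontal axis), of 59 tested genes in 9 lists of related function (vertical axis). Each point is a gene, shown by the brightest of its tested probe sets, and genes past the test are named. The largest reductions are those of GAD1, CA10 and SLC4A10, and the largest increase past the test is that of DKK1.

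No other aquaporin passed the test. Of 4 tested genes AQP3, a channel for water and glycerol, had the largest difference (0.31, adjusted p = 0.305 from limma). None of 4 tested potassium channel genes passed. KCNJ13, an inward rectifier of the pigment epithelium, differed by 1.84 (adjusted p = 0.184), with an SD of 1.68 in glaucoma and 1.64 in the healthy retinas. The summed intensity of this list was highest in the younger Shiba Inu (5896) and, among healthy retinas, in control 4 (2479). Of the 6 tested sodium-potassium pump genes, FXYD1 (phospholemman), a small regulator of the pump, rose by 0.77 (adjusted p = 0.0218) and the pump subunit ATP1B1 differed by -0.82 (adjusted p = 0.147). Both tested genes of volume regulation failed, with 0.76 for the cotransporter SLC12A4 (adjusted p = 0.0665).

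Among genes of glutamate and glutamine handling, 3 of 12 rose, 2 fell and 7 did not pass. The glutamine transporters SLC1A5 (0.86, adjusted p = 0.0175 from limma) and SLC38A5 (0.49, adjusted p = 0.0186) rose. GAD1, which makes GABA from glutamate in inhibitory neurons, fell by 2.97 (adjusted p = 0.00916), and SLC38A1, a glutamine transporter of neurons, fell by 0.92 (adjusted p = 0.0196). GOT1, the cytosolic aspartate aminotransferase, differed by -0.73 (adjusted p = 0.0697). GAD1 is also in the amacrine list.

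The other carbonic anhydrase genes did not move as a family. Of 8 tested, CA10 fell by 2.60 (adjusted p = 0.00162 from limma) and CA11 by 0.41 (adjusted p = 0.0412), and 6 did not pass, of which CA8 differed most (0.86, adjusted p = 0.589). CA8, CA10 and CA11 encode related proteins without catalytic activity that are known from neurons. Of 8 genes of bicarbonate, proton and lactate transport, the anion exchanger SLC4A3 fell by 1.20 (adjusted p = 0.000520) and SLC4A10, a sodium-driven bicarbonate transporter of neurons, by 2.01 (adjusted p = 0.0125). The largest difference among the 6 that did not pass was that of SLC4A2 (0.51, adjusted p = 0.430).

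The dystrophin complex ties AQP4 and Kir4.1 to the endfoot membrane. Of its 8 tested genes DTNA, the dystrobrevin of glial endfeet, rose by 0.66 (adjusted p = 0.0312 from limma), and so did MLC1, a membrane protein of astrocyte endfeet, by 0.57 (adjusted p = 0.0237). The sarcoglycan SGCE fell by 0.38 (adjusted p = 0.0490) and SNTB2, a syntrophin, differed by -0.57 (adjusted p = 0.117). Of 7 tested Dickkopf and secreted Wnt regulators, the Wnt antagonists SFRP1 and DKK1 rose by 1.01 (adjusted p = 0.0215) and 2.55 (adjusted p = 0.0254), while SFRP5 differed by 1.10 (adjusted p = 0.335).

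The genes nearest to each member in pattern were found by the root mean square difference between log2 profiles over the 10 retinas, after each profile was set to a healthy mean of 0. Among 7899 other genes, those nearest to AQP1 were C1QC, a complement C1q chain made by microglia (0.62), the phosphodiesterase SMPDL3A (0.65) and FCRLA, a protein related to Fc receptors (0.67). Nearest to AQP4 were LOC488622 (0.38), SERPING1, the inhibitor of complement C1 (0.38), and CFI, complement factor I (0.40). For CA2 they were COQ10A, a mitochondrial protein of the coenzyme Q pathway (0.25), OXR1, a gene of oxidation resistance (0.25), and GAP43, a growth cone protein of neurons (0.26). Profiles with a difference of like size between the groups are near by this measure, and AQP1 itself had a root mean square distance of 2.63 from a flat profile.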

How the data were processed

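RNA of the neural retina, 1 eye per dog, was hybridized to Affymetrix Canine genome 2.0 arrays. RMA was run by the authors, who deposited one linear intensity per probe set and array, unfiltered. The software used for RMA is not given in the sources used here. The log2 of these values was taken, 111 array control probe sets were left out, and probe sets above 7 in 2 or more samples, the definition of expression in the methods, were tested with limma 3.58.1 in R 4.3.3 (5 glaucoma against 5 healthy, no covariate). P-values were adjusted by Benjamini-Hochberg over all 18416 tested probe sets. Groups came from the sample titles. Gene symbols came from the platform annotation, which gives 1 symbol to 29254 probe sets, several to 439 and none to 13231, and all 9 members kept their symbol in RefSeq. Related genes and markers were represented by their tested probe set with the highest mean. From each list, up to 2 genes that rose and 2 that fell with the smallest adjusted p were named, and the 1 with the largest difference that did not pass. The members and lists were chosen with earlier results of these data known. The fit was tested on simulated data in which both groups had the spread of the healthy retinas. That test did not cover the larger spread of some members in glaucoma. Arrays have no read depth, and their number limits the precision. Dogs are separate animals, and replicate numbers only name them.

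The methods tested expression with the Wilcoxon rank sum test, tried here as an alternative, and with significance analysis of microarrays, which was not run here. Alternatives were other filters, normalizations, variance models and tests, covariates for age and for the 3' to 5' signal of control probe sets, and samples or breeds left out. The setting without the younger Shiba Inu and control 4, and a second choice of actin control, were added after the data were seen.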

Additional observations from a re-analysis of the deposited data

Results flagged for a closer look

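In each group of 5 retinas, the highest and the lowest value of every member probe set were compared to the nearest other value, as a share of the range of the group. Of 30 such groups, 3 passed the critical value of 0.71, where about 1 in 20 groups, or 1.5 of 30, would do so by chance. All 3 were in the healthy group. Control 1 had the highest level of KCNJ10 (0.836 of the range, a log2 level of 5.61 against 5.20 to 5.27 in the others). Control 3 had the highest level of the dim second probe set of SLC1A2 (0.814, 5.48 against 5.09 to 5.16), and both of these probe sets lay below the minimum for expression. Control 3 also had the lowest level of the brighter probe set of DKK3 (0.721, 13.10 against 13.37 to 13.48). None of these probe sets was called under any setting that tested it.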

How the results depend on the processing

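The rise of AQP1 and AQP4 kept its direction in all 25 alternatives and its call in 24 of them, with differences of 3.38 to 4.17 and 1.57 to 2.47. The exception was the exact Wilcoxon rank sum test, the rank test of the study's methods, which called 0 members, 0 related genes and 0 of all probe sets in either direction after adjustment. At an unadjusted p under 0.05 this test gave 2 members higher and 3 lower, 13 and 8 related genes, and 2171 and 2669 probe sets. Its smallest p with these group sizes is 0.00794. CA2 kept its direction in every alternative. The plain t-test, which the study names in a legend but not in its methods for the arrays, called 0 members lower (3 at an unadjusted p under 0.05), array weights 5, and the setting without the younger Shiba Inu and control 4 called 1. Counts of lower members ranged from 0 to 4 with each retina left out in turn, and those of higher members were 2 throughout. The difference of the brighter SLC4A4 probe set was above 0 with arrays centred on their medians (0.0085), age (0.50), no Basset Hounds (0.13) and the second 3' to 5' ratio (0.15), and was -0.31 to 0.15 with each retina left out (above 0 without the older Shiba Inu, 0.13, the older Basset Hound, 0.15, the Dalmatian, 0.05, or control 5, 0.03). The second DKK3 probe set differed by 0.12 without the Basset Hounds. The cause was not tested.

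Related genes called higher numbered 4 with the minimum required in 5 samples, 4 by the plain t-test, 5 with age and 4 without the Shiba Inus, and those called lower 12 with array weights, 3 with age and 11 with the 3' to 5' ratio (2 to 8 and 4 to 9 with each retina left out). Over all probe sets, array weights gave 2095 higher and 2811 lower, age gave 886 lower, and leaving out each retina gave 866 to 1606 and 1111 to 2127. Replicate numbers do not pair the dogs: same-numbered retinas had correlations of deviations from -0.24 to 0.07, and none correlated best with its own number. With the replicate block 1114 probe sets were lower and 4 related genes higher, and the members' calls were the same.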
